A study of Mus musculus with 18 samples.

Results

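Late regions are places in the genome that acquire GATA6 slowly after its induction. The 1657 regions described here are the Late regions that also bound SOX17, never showed a peak of OCT4, SOX2 or ESRRB, the pluripotency factors (PTFs) profiled in the study, and carried an enhancer signature of histone marks in embryonic stem (ES) cells. They were chosen by 4 deposited classes of the authors, for GATA6 dynamics, PTF peaks, SOX17 peaks and histone state, and made up 3.91% of the 42403 GATA6 binding regions. They were 27% of the 6144 Late SOX17-bound regions without PTFs. By histone state, 179 were classed as active, 729 as poised and 749 as primed enhancers. The values that selected them, namely the timing of GATA6, the SOX17 and PTF peaks and the histone state, are a description and were not tested.

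The series comprises 18 MNase-seq libraries of KH2 mouse ES cells (C57BL/6 x 129/Sv), all carrying a Gata6 transgene that doxycycline (Dox) switches on. There were 6 groups of 3 replicates, untreated cells (d0) and cells given Dox for 8, 16, 24, 48 or 96 h. The cells model primitive endoderm (PrE) by forced expression of GATA6 in a culture line, not by the development of an embryo. The table of regions analysed here holds no MNase value, so no library enters a comparison, and the regions are the units of every test. The read depth behind the classes was not analysed here.

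GATA6 is a zinc-finger factor that binds GATA sequences and can engage DNA wrapped in nucleosomes. It directs ES cells towards PrE, the layer that gives rise to the extraembryonic endoderm of the yolk sac, and one of its early targets is Sox17. SOX17 is a high-mobility-group factor that bends DNA at a short ATTGT-containing sequence. Of the enhancer signatures, an active one usually carries H3K4me1 with H3K27ac, a poised one H3K4me1 with H3K27me3, and a primed one H3K4me1 without either.

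To see what the DNA of these regions looks like, the member with the highest sum of GATA6 and SOX17 motif scores within 100 bp to each side of the GATA6 summit (the summit window) is shown for each state. Sequences are from the mm10 (GRCm38) plus strand, and capitals mark the best GATA6 motif and the best SOX17 motif of the window. The active one (chr11:97811625-97811697) lies in an intron of Lasp1 and has its GATA6 motif on the minus strand, 31 bp from the SOX17 motif. The poised one (chr7:128284459-128284507), in an intron of BC017158, has both motifs on the minus strand, 7 bp apart. The primed one (chr2:24849996-24850069), in an intron of Ehmt1, has the SOX17 motif first, on the minus strand, and the GATA6 motif 32 bp further on.
Lasp1 intron, active: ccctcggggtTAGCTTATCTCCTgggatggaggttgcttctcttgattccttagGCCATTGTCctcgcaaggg
BC017158 intron, poised: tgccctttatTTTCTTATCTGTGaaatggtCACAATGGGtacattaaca
Ehmt1 intron, primed: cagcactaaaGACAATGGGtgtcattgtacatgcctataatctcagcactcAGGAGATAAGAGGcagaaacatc

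Motif scores are the log-odds scores of the deposited motif search, and a motif is present where its score reaches the lowest deposited score of its matrix. The poised region had the sum of 27.03, from a GATA6 score of 14.97 and a SOX17 score of 12.06. The primed region reached 27.49, from 14.66 and 12.83. The active region reached 24.64, from 12.39 and 12.25. The score of 12.83 is the highest that any SOX17 motif had among the members. The active region was of moderate accessibility at d0 and gained GATA6 after Oct4 knockdown, while the poised and primed ones were closed at d0 and unchanged after the knockdown.

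Most members did not have such motifs for both factors. Within the summit windows, 582 members (35.1%, 95% interval 32.9 to 37.5) held both a GATA6 and a SOX17 motif. A GATA6 motif alone was found in 487 (29.4%, 27.2 to 31.6) and a SOX17 motif alone in 354 (21.4%, 19.5 to 23.4). Neither motif was found in 234 members (14.1%, 12.5 to 15.9). Over all 42403 regions the shares were 32.1% for both, 45.1% for GATA6 alone, 11% for SOX17 alone and 11.8% for neither. Both motifs were present in 7.28% of windows 3 kb from member summits. Intervals of shares here are Wilson intervals and cover counting error only, and neighbouring regions are not independent. Over the whole region, whose mean width was 518 bp (SD 243), 80.4% had a GATA6 motif and 75.7% a SOX17 motif.

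The first comparison asked whether regions with an enhancer signature differ in sequence from other Late SOX17-bound regions without PTFs. For this the members were set against 4276 such regions in the naive and heterochromatin states. Fewer members had a GATA6 motif, a SOX17 motif or both. A GATA6 motif was present in 1069 members (64.5%, 62.2 to 66.8) and in 3313 regions of the other states (77.5%), a log2 odds ratio of -0.92 (95% interval -1.10 to -0.74, adjusted p = 1.62e-22). A SOX17 motif was present in 936 members (56.5%, 54.1 to 58.9) against 65.2%, a log2 odds ratio of -0.53 (-0.70 to -0.36, adjusted p = 4.17e-09). Both together were present in 35.1% against 49.9%, a log2 odds ratio of -0.88 (-1.05 to -0.71, adjusted p = 9.41e-24). All p-values are from two-sided Fisher's exact tests adjusted together over 87 tables by the Benjamini-Hochberg procedure. The direction was the same on 20 of 20 chromosomes for the GATA6 motif and for both motifs, and on 19 of 20 for the SOX17 motif.

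Members were also richer in G and C. The GC share of the summit window averaged 46.5% in members (SD 5.21) and 42.8% in the other states (SD 4.70), a difference of 3.77 percentage points (95% interval 3.48 to 4.06). Within bins of equal GC share, an alternative added after the GC shares were seen, the log2 odds ratios were -0.76 for the GATA6 motif, -0.43 for the SOX17 motif and -0.74 for both, and all 3 stayed past the threshold of adjusted p. Regions closed at d0 gave -0.64, -0.57 and -0.73.

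**Figure D1:**
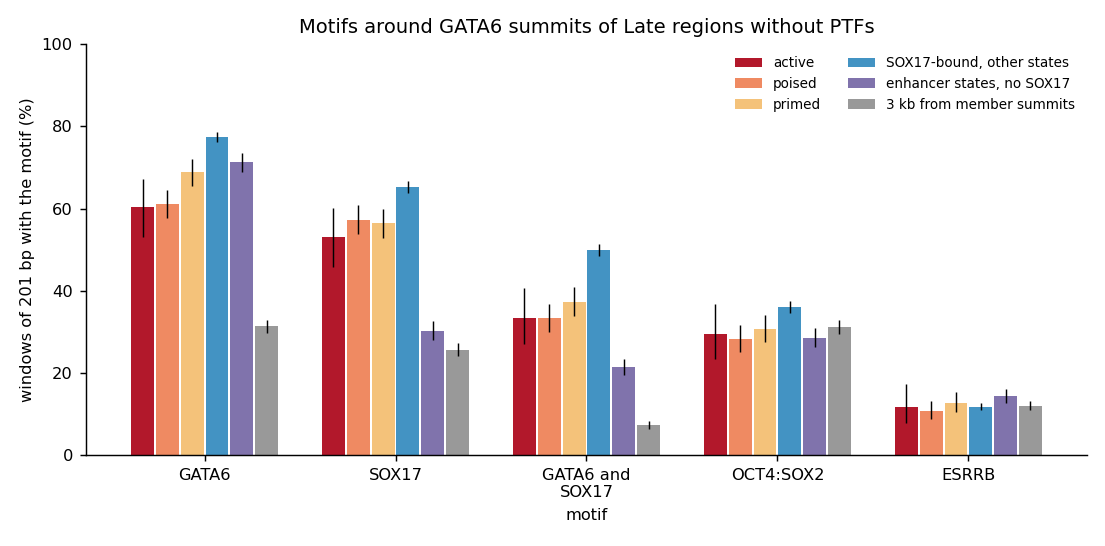
Share of summit windows with each motif (y axis, %), for members by enhancer state, for Late SOX17-bound regions without PTFs in other states, for Late enhancer-state regions without SOX17 and PTFs, and for windows 3 kb from member summits. Error bars are 95% Wilson intervals. The GATA6 and SOX17 bars of all 3 states stand above the windows 3 kb away, at 31.4% and 25.7%, while the OCT4:SOX2 and ESRRB bars of the states lie close to them.

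The GATA6 motifs of members also scored lower. Over the regions with a GATA6 motif, the best deposited score averaged 9.40 in 1332 members (SD 2.17) and 9.99 in 3837 regions of the other states (SD 2.25), a difference of -0.58 (-0.72 to -0.45). Among full-length best motifs, the core GATAAG was present in 35.6% of members (33.0 to 38.2), against 43.7% in the other states and 52.6% over all regions. The core was present in 24.3% of active (17.8 to 32.1), 32.8% of poised and 40.5% of primed members. The remaining members used other cores, of which GATAAA (12.2%) and GATAAC (10.1%) were the most frequent of those counted. No single 13-base sequence was common: the 1298 full-length best GATA6 motifs had 1229 distinct sequences, and the most frequent, TTGAGATAAGGTT, occurred 5 times.

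The scores of SOX17 motifs in members were close to those in the other SOX17-bound regions. Their best deposited score averaged 10.0 in 1255 members (SD 1.65) and 10.1 in 3529 other regions (SD 1.58), a difference of -0.11 with an interval from -0.21 to -0.00017. The interval included 0 when a chromosome was left out for 13 of the 20, and under the other alternatives run. The core CATTGT was present in 55.9% of best SOX17 motifs of members (53.2 to 58.7) and in 58.8% of those in the other states, and TATTGT in 20.4% and 21.2%. The 5 most frequent 9-base sequences in members are shown to give the range that SOX17-bound enhancer regions use, with the CATTG of each in its middle.
Best in 34 members: CCCATTGTC
Best in 31 members: GCCATTGTC
Best in 28 members, higher score: CTCATTGTC
Best in 28 members, lower score: TCCATTGTT
Best in 26 members: CCCATTGTT

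The most frequent one, in 2.71% of members with a SOX17 motif, also had the highest score of 12.83. The scores of the others, in the order shown, were 12.25, 12.81, 9.77 and 10.26. Altogether, 184 distinct sequences served as the best SOX17 motif of a member.

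The second comparison asked what distinguishes the members from enhancer-state Late regions that lacked a SOX17 peak as well as PTFs, of which there were 1484. A SOX17 motif was present in 56.5% of member windows and in 30.3% of theirs, a log2 odds ratio of 1.58 (1.36 to 1.79, adjusted p = 2.27e-48, 20 of 20 chromosomes). The share without SOX17 binding was near that of windows 3 kb from their own summits, 27.1% (25.4 to 28.7), as was the 25.7% 3 kb from member summits. The best SOX17 score was also higher in members, by 0.59 (0.43 to 0.74), against a mean of 9.43 in 688 regions without SOX17 binding. In those the core CATTGT made up 39.5% of best motifs (35.9 to 43.2), and CACTGT 12.8% against 4.86% in members.

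GATA6 motifs showed the opposite direction. They were present in 64.5% of member windows and 71.3% of windows without SOX17 binding, a log2 odds ratio of -0.45 (-0.67 to -0.23, adjusted p = 0.000163, 15 of 20 chromosomes). This difference was -0.61 within bins of region width but -0.04 (-0.30 to 0.21) when the whole region was searched, where it no longer passed the threshold. Members were wider than regions without SOX17, at 518 bp against 383 bp (SD 164), a difference of 135 bp (120 to 149). A wider region has more sequence in which a motif can be found. Primed members alone, against regions without SOX17 of all 3 enhancer states together, gave -0.17 (-0.45 to 0.10).

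Motifs for the pluripotency factors were not above their surroundings in members, which had been selected on the absence of their peaks. The composite OCT4:SOX2 motif was present in 29.5% of member windows (27.4 to 31.8) and in 31.2% of windows 3 kb away (29.6 to 32.8). It was less frequent than in the other states, where the share was 36.0% (log2 odds ratio -0.43, -0.60 to -0.25, adjusted p = 8.81e-06). Within bins of GC share this value was -0.10 and did not pass the threshold. Against enhancer regions without SOX17 the log2 odds ratio was 0.06 (-0.16 to 0.28, adjusted p = 0.736). The motif of ESRRB, an orphan nuclear receptor of pluripotent cells, was present in 11.8% of members and of the other states and in 14.4% of regions without SOX17 (log2 odds ratio -0.32, -0.62 to -0.02, adjusted p = 0.0813).

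Where both factors have a motif, their positions were examined to see whether they keep a fixed arrangement. The best GATA6 motif had its centre within 50 bp of the summit in 69.5% of the 1069 members with one (66.7 to 72.2), where even placement in the window would give 53.4%. The best SOX17 motif was within 50 bp in 64.4% of 936 members (61.3 to 67.4), where even placement would give 52.3%. For GATA6 this share was 70.1% in the other states, 72.8% in regions without SOX17 and 71.9% over all regions. For SOX17 it was 66.5%, 58.4% and 60.9% in the same order. In members the median distances from the summit were 34 bp and 37 bp. In active members both shares were lower, at 57.4% of 108 (48.0 to 66.3) and 57.9% of 95 (47.8 to 67.3), with intervals that include even placement.

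**Figure D2:**
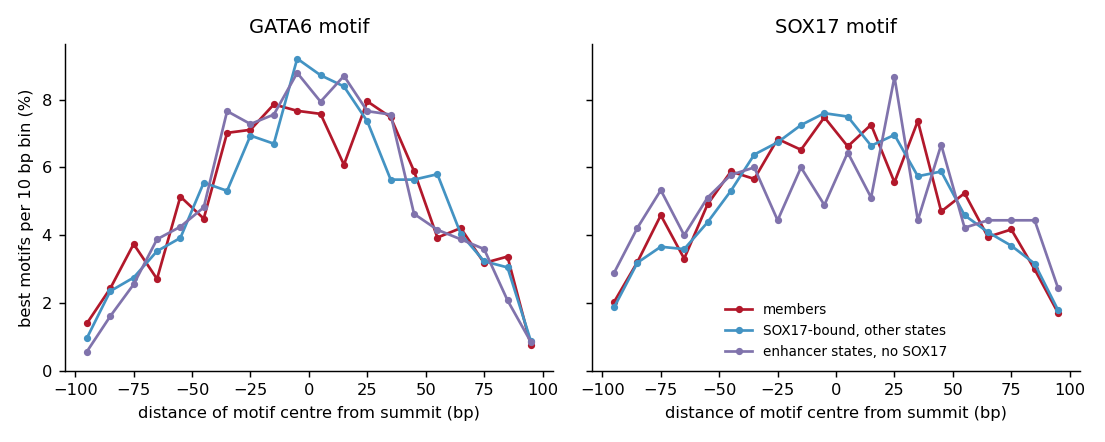
Distance of the centre of the best GATA6 motif (left) and best SOX17 motif (right) from the GATA6 summit (x axis, bp), as the share of best motifs per 10 bp (y axis, %), for members and both comparison groups. In members the GATA6 and SOX17 motifs are concentrated around the summit, with medians of 34 bp and 37 bp from it. The same holds in the other states, with medians of 32 bp and 36 bp. The SOX17 motifs of regions without SOX17 binding are flatter, with a median of 43 bp, while their GATA6 motifs have a median of 31 bp.

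No preferred spacing stood out among the 582 members with both motifs. The motifs overlapped in 7.22% (5.38 to 9.61), lay 0 to 10 bp apart in 14.4% (11.8 to 17.5), and had a median gap of 35 bp. The commonest single gap, 12 bp, was found in 15 members (2.58%). They lay on the same strand in 41.8% (37.8 to 45.8), against 43.7% in the other states (41.6 to 45.8) and 48.9% without SOX17 binding (43.4 to 54.4). The corresponding shares with a gap of 0 to 10 bp were 14.9% (13.5 to 16.5) and 11.4% (8.32 to 15.3), with intervals that overlap those of the members.

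The members were not alike in the state of chromatin before induction, and this followed the state that had been used to select them. Of all members, 39 were accessible at d0, 661 moderate and 957 closed, so that 42.2% were not closed (39.9 to 44.6). Over all 42403 regions 38.7% were not closed. In the active state 91.6% were not closed, in the poised state 49.4% and in the primed state 23.5%. In the other histone states the share was 2.43%, and in enhancer regions without SOX17 it was 41.0%. The last differed from the members by a log2 odds ratio of 0.08 (-0.13 to 0.28, adjusted p = 0.628). Accessibility and histone marks both describe chromatin of undifferentiated ES cells, the marks in ENCODE data and not in the cells studied here. For this reason the differences between states are given without p-values. Their tables were computed and are counted among the 87 adjusted together.

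**Figure D3:**
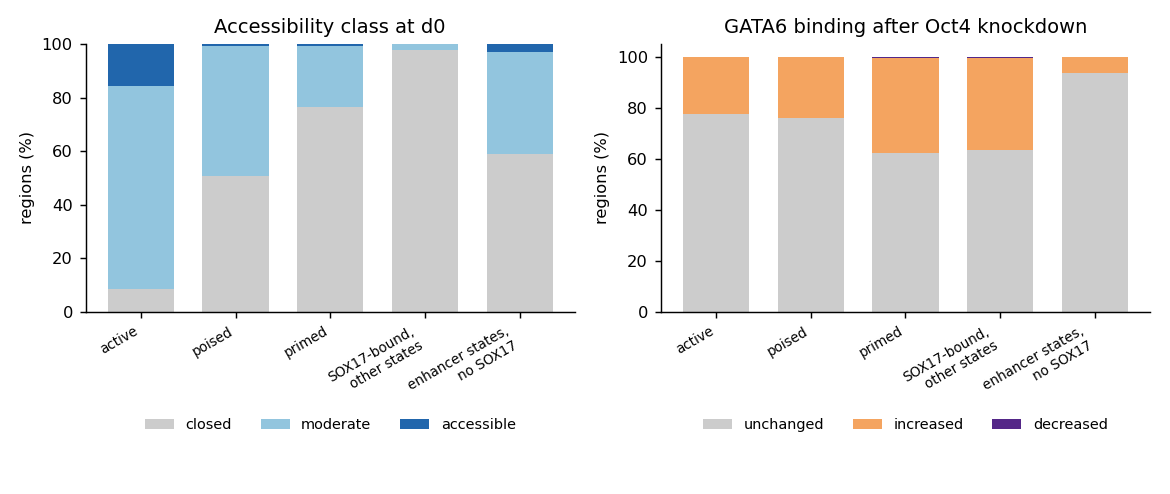
Share of regions (y axis, %) in each class of accessibility at d0 (left) and of GATA6 binding after Oct4 knockdown (right), for members by state and for both comparison groups. Closed regions rise from 8.38% of active to 76.5% of primed members, and increased binding is found in 22.3% to 37.4% of the 3 states but in 6.06% of regions without SOX17.

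Fewer GATA6 motifs went with chromatin that was not closed at d0 among the members. Open here and below means of the moderate or accessible class, and 661 of the 700 open members were moderate. A GATA6 motif was present in 58.4% of the 700 members open at d0 and in 69.0% of the 957 closed ones, a log2 odds ratio of -0.66 (-0.95 to -0.37, adjusted p = 4.13e-05). The shares of SOX17 motifs were 57.4% and 55.8% (log2 odds ratio 0.10, -0.19 to 0.38, adjusted p = 0.649). This contrast was chosen after the values were seen. Open members had a mean GC share of 47.9% and closed ones 45.5%, and the part of base composition in this difference was not tested.

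Within the summit windows, the GATA6 motif share differed between enhancer states, and no difference in the SOX17 motif share was detected. A GATA6 motif was present in 68.8% of primed members and in 61.0% of the rest (log2 odds ratio 0.49, 0.20 to 0.79, adjusted p = 0.00322), and in 61.2% of poised members against 67.1% (-0.37, -0.67 to -0.08, adjusted p = 0.0315). Neither call held within bins of GC share, where the log2 odds ratios were 0.33 and -0.24. Active members had 60.3% against 65.0% (-0.29, -0.75 to 0.17, adjusted p = 0.380). The SOX17 shares were 53.1% in active, 57.3% in poised and 56.5% in primed members, with log2 odds ratios against the other members of -0.22 (-0.67 to 0.23), 0.09 (-0.19 to 0.37) and -0.001 (-0.28 to 0.28). Over whole regions the values were -0.37 (-0.69 to -0.04) for poised and 0.40 (0.07 to 0.73) for primed members, opposite in sign to those of the windows. Best GATA6 scores averaged 8.79 in active (SD 1.80), 9.26 in poised (SD 2.10) and 9.67 in primed members (SD 2.26), a difference of -0.69 (-1.01 to -0.37) between active and other members. Primed members were also the widest, at 578 bp, against 502 bp in active and 460 bp in poised members. Their windows had the lowest GC share, 44.8%, against 48.4% and 47.9%.

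GATA6 binding after depletion of OCT4 was taken from the deposited classes of the authors, which compare Oct4 siRNA with control siRNA at 48 h of Dox in libraries other than those of the series. OCT4 is the POU factor at the centre of the pluripotency network, and these regions were selected for having no OCT4 peak. Increased GATA6 binding was recorded at 495 members (29.9%, 27.7 to 32.1), beside 8.57% of all 42403 regions. Decreased binding was recorded at 5 members (0.302%, 0.129 to 0.704), beside 6.25% of all regions. The remaining 1157 were unchanged.

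The share with increased binding was far above that of enhancer regions without SOX17. Of these, 90 (6.06%) were increased, a log2 odds ratio of 2.72 for members (2.38 to 3.06, adjusted p = 1.35e-69, 20 of 20 chromosomes). Region width moved with this class. Among the members, increased regions averaged 632 bp (SD 271) and unchanged regions 470 bp (SD 213), a difference of 162 bp (135 to 189). Within bins of width the log2 odds ratio was 2.21 (1.85 to 2.56). In the narrowest bin, 172 to 341 bp, 11.2% of 400 members and 3.66% of 738 regions without SOX17 were increased, and in the widest, 855 to 5381 bp, 61.3% of 142 and 14.7% of 34. The share of members rose over the 5 bins, through 24.7%, 30.6% and 45.8% in the 3 between them. GATA6 and SOX17 signal per region was not used here, and its part in these classes was not tested.

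**Figure D4:**
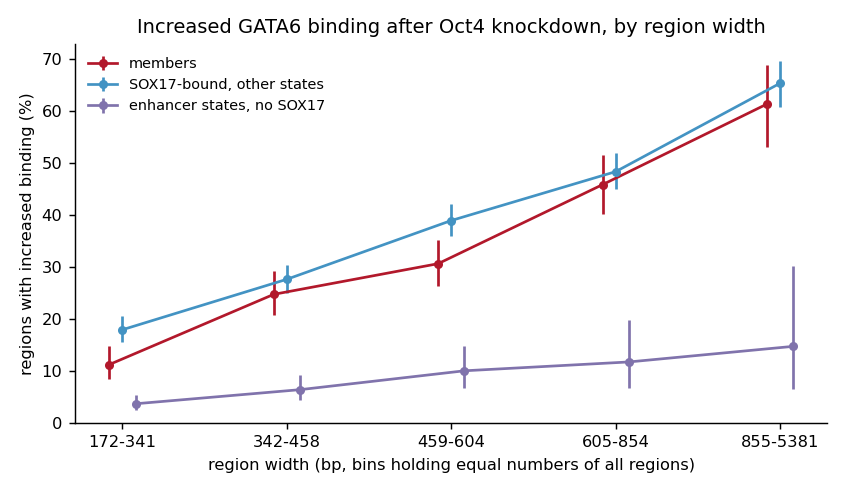
Share of regions with increased GATA6 binding after Oct4 knockdown (y axis, %) in 5 bins of region width (x axis, bp), for members and both comparison groups, with 95% Wilson intervals. Members rise from 11.2% to 61.3%, close to the SOX17-bound regions of other states (17.9% to 65.3%). Regions without SOX17 rise from 3.66% to 14.7%, with 34 regions in the widest bin.

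Compared with SOX17-bound regions in the other states, of which 36.0% were increased, the members had a lower share, with a log2 odds ratio of -0.40 (-0.58 to -0.22, adjusted p = 2.94e-05). Among regions closed at d0 the value was -0.06 (-0.27 to 0.16), and the call was lost. Primed members alone had 0.09 (-0.15 to 0.32), while active and poised members alone had -0.97 (-1.48 to -0.45) and -0.83 (-1.09 to -0.57). By state, 280 primed (37.4%), 175 poised (24.0%) and 40 active members (22.3%) were increased. Primed members exceeded the other members by a log2 odds ratio of 0.94 (0.64 to 1.25, adjusted p = 7.81e-09), a value that was 0.55 (0.23 to 0.88) within bins of width. Poised members fell below the others by -0.74 (-1.05 to -0.42, adjusted p = 1.50e-05), a value that was -0.32 and past no threshold within bins of width. Active members had -0.63 (-1.16 to -0.10, adjusted p = 0.0437), a call that leaving out a chromosome ended for 12 of the 20.

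Motif content also moved with the class. In a contrast chosen after the values were seen, both motifs were present in 41.6% of increased and 32.5% of unchanged members, a log2 odds ratio of 0.57 (0.25 to 0.88, adjusted p = 0.00145). A SOX17 motif was present in 61.8% against 54.5% (0.44, 0.13 to 0.75, adjusted p = 0.0156), and a GATA6 motif in 68.7% against 62.7% (0.38, 0.06 to 0.71, adjusted p = 0.0466). The OCT4:SOX2 motif was present in 30.9% against 29.0% (0.13, -0.20 to 0.46, adjusted p = 0.597). The GC share averaged 45.3% in increased and 47% in unchanged members, a difference of -1.73 percentage points (-2.25 to -1.22). The part of base composition in these motif differences was not tested. Increased members were less often open at d0, at 31.7% against 46.9% (-0.93, -1.25 to -0.61, adjusted p = 3.79e-08).

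The members with the highest motif sums among the increased and the decreased ones, with an absent motif counted as 0, are shown to set both classes side by side. This ranking favours windows that hold both motifs. The first (chr2:103444912-103445034) lies in an exon of Elf5, which encodes an ETS factor of the trophoblast. Its region was primed, of moderate accessibility and 854 bp wide, with GATA6 and SOX17 scores of 14.55 and 12.06 and a gap of 81 bp. The second (chr2:154661474-154661591), in an intron of Chmp4b, a component of the membrane-scission machinery, was primed and closed with scores of 14.31 and 11.76. The third (chr11:120370776-120370864) lies 64 bp from a transcript start of Faap100, a DNA repair gene, and was poised and of moderate accessibility with scores of 13.10 and 12.83.
Elf5 exon, increased: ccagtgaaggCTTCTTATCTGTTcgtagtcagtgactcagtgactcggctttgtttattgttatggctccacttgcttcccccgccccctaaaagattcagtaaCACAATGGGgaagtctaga
Chmp4b intron, increased: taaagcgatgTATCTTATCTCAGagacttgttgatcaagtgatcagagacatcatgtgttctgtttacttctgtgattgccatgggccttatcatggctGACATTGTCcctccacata
Faap100 promoter, increased: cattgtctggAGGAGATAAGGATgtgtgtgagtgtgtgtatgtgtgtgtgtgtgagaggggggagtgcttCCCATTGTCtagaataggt

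Of the 5 decreased members, the 3 ranked highest had a GATA6 motif and no SOX17 motif in the window, and all 3 were primed and closed at d0. The motifs of 2 of them are shown, 1 in an intron of Hectd4 (chr5:121292701-121292733) and 1 lying 5837 bp from the start of the connexin gene Gja4 (chr4:127308228-127308260). Their GATA6 scores were 13.08 and 7.94, and the capitals again mark the motif. With 5 decreased members, their share could not be told apart from the 0.561% of the other states (log2 odds ratio -0.90, -2.29 to 0.49, adjusted p = 0.485).
Hectd4 intron, decreased: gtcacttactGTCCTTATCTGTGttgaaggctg
Near Gja4, decreased: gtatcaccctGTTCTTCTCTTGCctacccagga

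To look beyond the matrices of the deposited search, 16 short words were counted in the summit windows on both strands. GATAAG, the core of GATA sites, and ACAATG, the core of SOX sites, followed the same pattern as the motifs, with which they overlap. GATAAG was present in 24.7% of members, 36.1% of the other states, 34.8% of regions without SOX17, 43.1% of all regions and 4.80% of windows 3 kb from member summits. ACAATG was present in 34.5%, 42.8%, 13.8%, 23.0% and 8.63% of the same sets. The related word ACAATA was present in 16.8% of members and 7.55% of regions without SOX17 (log2 odds ratio 1.31, 0.98 to 1.64, adjusted p = 9.66e-15).

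The words of AP-1, TEAD and FOXA factors were also counted. The AP-1 word TGANTCA, bound by FOS and JUN proteins, was present in 15.0% of members, 14.3% of the other states and 15.4% of regions without SOX17, beside 10.7% of all regions and 5.09% of windows 3 kb away. The log2 odds ratios were 0.09 (-0.14 to 0.32, adjusted p = 0.605) and -0.04 (-0.32 to 0.24, adjusted p = 0.885). The TEAD word GGAATG, read by effectors of Hippo signalling, was present in 17.1% of members, 18.8% of all regions and 10.1% of the windows 3 kb away. Its log2 odds ratios were 0.18 (-0.04 to 0.40) against the other states and 0.07 (-0.21 to 0.34) against regions without SOX17. Within accessibility classes, an alternative added after the values were seen, the first became 0.32 (0.07 to 0.58) and passed the threshold. The word TGTTTAC of FOXA factors, forkhead proteins of the endoderm, was present in 10.3% of members and 9.64% of the other states. All regions had it in 6.16% and windows 3 kb away in 2.96%. Against the other states the log2 odds ratio was 0.11 (-0.16 to 0.38, adjusted p = 0.597). Its share differed from the 7.82% of regions without SOX17 by a log2 odds ratio of 0.44 (0.08 to 0.80, adjusted p = 0.0356). That call was lost within bins of GC share (0.40) and with 1 region per 10 kb (0.34), among other alternatives.

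Words rich in G and C set the members apart from the other states, while their shares in members were near those over all regions. The SP/KLF word GGGCGG was present in 6.82% of members (12.8% of active, 7.27% of poised and 4.94% of primed), 1.92% of the other states and 7.55% of regions without SOX17. Over all regions its share was 6.45%. Against the other states the log2 odds ratio was 1.90 (1.49 to 2.32, adjusted p = 5.34e-18), and it was 1.21 within bins of GC share. The KLF word GGGTGTG was present in 9.54% against 6.03% (0.71, 0.42 to 1.01, adjusted p = 1.50e-05), and in 4.35% of windows 3 kb away. Regions without SOX17 had this word in 11.5% and all regions in 9.35%. The E-box CAGCTG, present in 12.6% against 9.19%, had a log2 odds ratio of 0.51 that became 0.04 within bins of GC share. Its share was 13.3% in regions without SOX17 and 11.9% over all regions. The HNF1 word GTTAAT was less frequent than in the other states (7.79% against 10.6%, log2 odds ratio -0.50, adjusted p = 0.00231) and more frequent than without SOX17 (5.39%, log2 odds ratio 0.57, adjusted p = 0.0208). Both HNF1 calls were lost within bins of GC share. The octamer ATGCAAAT of POU factors was present in 8 members or 0.483%, beside 0.561% of the other states, 0.674% of regions without SOX17, 3.0% of all regions and 1.16% of windows 3 kb away. Neither comparison passed the threshold (adjusted p = 0.907 and 0.628).

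**Figure D5:**
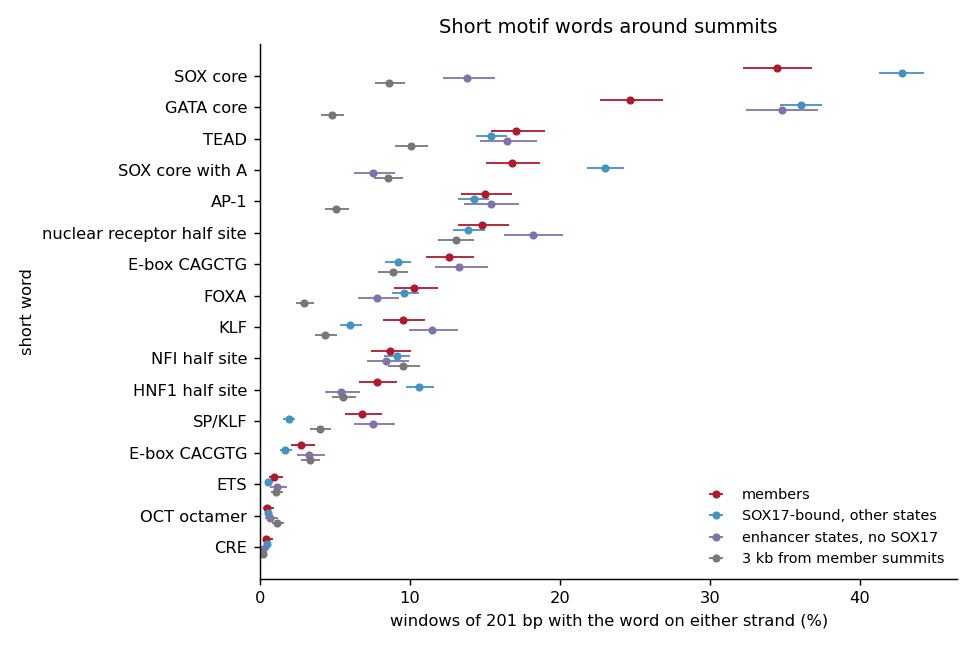
Share of summit windows (x axis, %) with each of 16 short words (y axis) in members, both comparison groups and windows 3 kb from member summits, with 95% Wilson intervals. The SOX word ACAATG separates members (34.5%) from regions without SOX17 (13.8%), and the GATA word GATAAG is lower in members (24.7%) than in either comparison group.

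Members lay closer to genes than the SOX17-bound regions of the naive and heterochromatin states. The summit of 239 members lay 1 kb or less from a transcript start (14.4%, 12.8 to 16.2), as did 5.50% of summits in the other states, a log2 odds ratio of 1.54 (1.26 to 1.81, adjusted p = 3.91e-26, 19 of 20 chromosomes). Over all regions the share was 12.4%, near that of the members. The other states leave out 211 Late SOX17-bound regions without PTFs in the promoter state. With these added to the comparison group, the log2 odds ratio was 0.78 (0.53 to 1.02). Of all members, 935 (56.4%) were in introns, 61 (3.68%) in exons and 422 (25.5%) between genes, against 49.7%, 3.16% and 41.7% in the other states. The median distance to the nearest start of a protein-coding gene was 8647 bp, against 21865 bp in the other states. It was 10035 bp in regions without SOX17 and 16334 bp over all regions. Regions without SOX17 had 13.1% at promoters (log2 odds ratio 0.16, -0.14 to 0.45, adjusted p = 0.485). Active members had the highest promoter share, 20.7%, followed by poised (16.3%) and primed members (11.1%).

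The members were spread over 1342 nearest protein-coding genes, of which 1104 had a single member and 60 had 3 or more. Rere, which encodes a co-regulator of retinoic acid signalling, had the most, with 6 members on chromosome 4, all of them primed, all with a GATA6 motif and 4 with a SOX17 motif. Of these, 3 gained GATA6 after Oct4 knockdown, and 1 was open at d0. Hes1, a repressor downstream of Notch, had 5 members, 4 poised and 1 active, of which 4 were open at d0. Tcf7l2, a nuclear effector of Wnt signalling, had 5 primed members. Lrrc8d, a subunit of volume-regulated anion channels, and Rras2, a RAS-related GTPase, each had 5, of which 3 were poised and 2 primed. The 4 members nearest to Smad7, an inhibitor of TGF-beta signalling, were active (2) or poised (2), and none gained GATA6 after the knockdown. Foxo1, Pard6b and Pttg1ip also had 4 members each.

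Genes of 7 lists chosen for PrE and ES cells were examined for members within 100 kb of a transcript start, beside 20.8% of all 21911 protein-coding genes (4567). Of 12 PrE transcription factor genes, 7 had a member in this distance, among them Gata6, Gata4, Sox17, Sall4, Grhl2 and Tcf7l1. The member at Gata6 lay 55 bp from a start of the gene, was poised and of moderate accessibility and contained no GATA6 and no SOX17 motif. The member nearest Sox17 lay 13792 bp from its start, was poised and of moderate accessibility, and had a SOX17 motif of score 7.39 and no GATA6 motif. The member in an intron of Gata4, 4635 bp from a start, was primed and closed and had a GATA6 score of 8.39 and a SOX17 score of 9.68 in the window. Grhl2, a grainyhead factor of epithelia, had a primed member 482 bp from its start, which was closed at d0 and increased after Oct4 knockdown.

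The member nearest Sall4, a zinc-finger factor of ES cells and PrE, and the one at Gata4 are shown because both motifs stand in the window of a PrE regulator. Near Sall4 (chr2:168782721-168782765), 14810 bp from its start, the motifs were 3 bp apart, with scores of 9.42 and 9.68. At Gata4 (chr14:63208917-63209024) they were 66 bp apart.
Near Sall4, poised: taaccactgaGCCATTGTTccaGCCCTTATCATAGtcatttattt
Gata4 intron, primed: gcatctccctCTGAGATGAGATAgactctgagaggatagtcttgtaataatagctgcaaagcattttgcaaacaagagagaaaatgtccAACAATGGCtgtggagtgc

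Of 15 basement membrane genes, 6 had a member within 100 kb, and 6 had an enhancer region without SOX17. PrE derivatives secrete large amounts of this matrix. Lamc1, a laminin chain, had 6 members, the nearest 26852 bp from its start. Col4a1 and Col4a2, the paired type IV collagen genes, shared 2 members, of which the nearest lay in an intron of Col4a1 and had neither motif in its window. Sparc, a matrix glycoprotein, had a poised member in an intron with a SOX17 score of 12.81 (chr11:55410000-55410110), and Nid2 and Hspg2, encoding nidogen and perlecan, had 1 each. The member counted for Hspg2 (chr4:137641297-137641332) lies in an intron of Usp48, 72142 bp from Hspg2, and its GATA6 and SOX17 motifs overlap.
Sparc intron, poised: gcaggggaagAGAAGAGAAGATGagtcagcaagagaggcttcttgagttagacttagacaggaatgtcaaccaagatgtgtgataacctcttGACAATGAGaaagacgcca
Usp48 intron, primed: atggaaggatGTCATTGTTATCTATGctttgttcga

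In the other lists, 1 to 6 genes had a member in this distance. Of 11 genes for endocytosis and transport of the visceral endoderm, 6 had one, among them the endocytic receptor gene Lrp2 with 2 members, the nearest in its intron, 9432 bp from a start, poised and closed with scores of 9.67 and 9.28. Of 18 genes for PrE receptors and signalling, 5 had one (27.8%), including a poised member 357 bp from the start of Kit, a receptor tyrosine kinase, which gained GATA6 after Oct4 knockdown. Of 14 genes for secreted proteins, 4 had one (28.6%), among them Plat, encoding a plasminogen activator, at 722 bp. Of 14 pluripotency genes, 1 had one (7.14%), Prdm14, and that member lies at the promoter of Ncoa2. Of 13 genes of other lineages, 3 had one (23.1%), Eomes, Elf5 and Tbx6. For the regions of other states the counts in the same order, starting with the PrE transcription factors and the basement membrane, were 6, 12, 8, 11, 10, 2 and 4 genes, beside 7074 of all genes. For enhancer regions without SOX17 they were 1, 6, 3, 6, 5, 1 and 1 genes, beside 4060 of all genes. A region within this distance need not act on the gene.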

How the data were processed

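MNase-seq was performed on 18 libraries in 6 groups of 3 replicates, and the deposited table of 42403 GATA6 binding regions and 105 columns was analysed. Per the study's methods, bowtie2 and mm10 were used for alignment, and the authors called peaks with MACS2 on merged replicates against input, kept those called in each replicate, and defined GATA6 dynamics and histone states by clustering of ChIP-seq signal. The histone signal was from ENCODE data of ES cells. The class after Oct4 knockdown came from DESeq2 run by the authors, at an FDR under 0.1 and an absolute log2 fold change over 0.5. As deposited, a motif score is FIMO's log-odds value for the top match to 1 JASPAR matrix, not normalised. Columns of signal (59) that match no library of the series were not used, and neither were columns that group motif values. No replicate enters a test, so p-values measure the spread between regions only.

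The matrices were recovered from the deposited scores by least squares. Rescanning gave the deposited presence in all regions, with 0 differences, and windows of 100 bp to each side of the summit were scanned with them on the GRCm38 sequence, as were windows centred 3 kb to each side of summits that overlapped no region. Genes were from GENCODE M21. Shares carry 95% Wilson intervals. Classes were compared by two-sided Fisher's exact tests with Woolf intervals, adjusted together over 87 tables, and means by differences with 95% Welch intervals and no p-value. Stratified values are Mantel-Haenszel estimates in 5 bins. Named regions were, per state, those with the highest sum of scores and the highest score of each factor, and the 3 with the highest sum for increased and for decreased binding, with an absent motif counted as 0, besides the member nearest each listed gene and the 10 genes nearest to most members. Of the members with the highest single scores, only the scores are described. Some regions and genes that these rules name are not reported here. The members, lists and words were chosen with earlier results of these data known. The steps were tested on simulated data. Analyses used Python 3.11.15, numpy, pandas, scipy and matplotlib.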

Additional observations from a re-analysis of the deposited data

How the results depend on the processing

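No paired analysis was possible because no value of a replicate enters a comparison, and the replicate numbers of the libraries are not carried by the regions. Of the values recomputed for comparisons, the direction and the side of the threshold were kept in 1379 of 1469. The log2 odds ratios of the SOX17 motif, of both motifs and of increased binding after Oct4 knockdown against regions without SOX17, and of the GATA6 and SOX17 motif and both motifs against the other states, kept both under all alternatives run. The causes of the changes below were not tested. With deposited classes only, a stricter peak threshold was not tried. The number of regions limits the active state most (179 members), and read depth was not analysed.

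Against regions without SOX17, the GATA6 motif gave -0.044 over whole regions and -0.17 for primed members. Each value for a single state in this paragraph sets its members against regions without SOX17 of all 3 enhancer states together. The state is therefore not matched, and these values do not separate SOX17 binding from histone state. The OCT4:SOX2 motif gave 0.46 over whole regions. The ESRRB motif passed the threshold at -0.55 in windows of 50 bp to each side, -0.30 in windows of 200 bp to each side, -0.61 with the stricter score, -0.42 within bins of width, -0.50 in closed regions and -0.46 for poised members, with a range of -0.38 to -0.23 without single chromosomes. The share not closed at d0 gave 3.98 for active, 0.49 for poised and -1.18 for primed members. Promoter summits gave 0.78 for active members. The best GATA6 score differed by 0.0057 for primed members, the GC share by 0.91 and 0.41 percentage points for active and poised members, and CpG by 0.47 and -0.018 for the same.

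Against the other states, the OCT4:SOX2 motif gave -0.10 within bins of GC share and -0.42 for active members. Increased binding gave -0.055 in closed regions, -0.079 within accessibility classes and 0.086 for primed members. Width differed by -7.51 bp in closed regions, -32.3 bp for active and 42.7 bp for primed members, with a range of -19.9 to -13.9 bp without single chromosomes. The best SOX17 score differed by -0.11 without promoters, -0.083 in closed regions, -0.10 with 1 region per 10 kb, -0.095 within bins of width, -0.086 with the promoter state added, and -0.079, -0.13 and -0.087 for active, poised and primed members, with a range of -0.13 to -0.088 without single chromosomes.

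Between states, the GATA6 motif of active members gave -0.71 in windows of 50 bp to each side and -1.14 with the stricter score. For poised members it gave -0.17 and -0.33 in the same order, -0.24 within bins of GC share, -0.24 within bins of width and -0.40 in closed regions, with a range of -0.43 to -0.32 without single chromosomes. For primed members it gave 0.33 within bins of GC share and 0.32 in closed regions. Over whole regions, poised and primed members gave -0.37 and 0.40 for the SOX17 motif, -0.60 and 0.61 for OCT4:SOX2, -0.57 and 0.64 for ESRRB, and -0.57 and 0.51 for both motifs. Increased binding of active members gave -0.65 within bins of width, -0.58 without promoters and 0.29 in closed regions, with a range of -0.73 to -0.54 without single chromosomes, and that of poised members -0.32 within bins of width. Of the words, CACGTG gave -0.20 for primed members against the other states. GGGCGG gave 0.85 for active members against regions without SOX17 of all 3 enhancer states together. With list genes counted within 50 kb and 200 kb, 22 and 45 genes had a member in place of 32. Of all protein-coding genes, 12.7% and 33.2% had a member at these distances.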

Other observations

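Members were found on 20 chromosomes, from 25 on chromosome X to 132 on chromosome 11. As a share of the Late SOX17-bound regions without PTFs on the same chromosome they ranged from 12.2% on X to 36.7% on chromosome 15. They were mostly isolated from each other. The median distance from a member to the next was 416392 bp, and 124 of 1637 neighbouring pairs had summits within 10 kb.

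The base composition of members resembled that of their surroundings. The GC share averaged 46.5% at the summits and 45.9% in windows 3 kb away (SD 7.56, 3104 windows), and the mean number of CpG was 2.53 in both. In enhancer regions without SOX17 the summits had 47.5% GC and 2.94 CpG, against 45.5% and 2.42 in their surroundings. In the SOX17-bound regions of other states the summits had 42.8% and 1.74, against 43.3% and 1.90. Among members, the active ones had a mean of 3.41 CpG per window (SD 3.42), the poised ones 2.92 (SD 2.21) and the primed ones 1.94 (SD 1.62).

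Members contained 0 to 9 GATA6 motifs (mean 1.77, SD 1.48) and 0 to 8 SOX17 motifs (mean 1.37, SD 1.19) over the whole region, with means of 2.03 and 1.51 in the primed, 1.53 and 1.24 in the poised and 1.67 and 1.32 in the active state. The highest best GATA6 score was 15.20, in a poised member in an intron of Ocln, the gene of a tight junction protein. The active member with the highest score, 14.18, lies in an intron of Stx7, and the primed one, 15.08, in an intron of Timeless.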
